A study of Mus musculus with 6 samples.

Results

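The genes described here encode the constitutive proteasome, the protease that most cells carry for degrading proteins tagged with ubiquitin. They were chosen by name: every protein-coding gene of the count table whose symbol starts with Psma, Psmb, Psmc, Psmd, Psme, Psmf or Psmg and a digit, leaving out the immunoproteasome subunits Psmb8, Psmb9 and Psmb10. That rule took 46 of 18368 genes, and all 46 passed the filter on low counts that left 14443 genes for testing. Of the 46, 45 are proteasome subunits, activators or assembly factors. Psmc3ip meets the rule by its name but encodes a partner protein that acts in meiotic recombination, so it is kept in the counts and described apart. Psmb11, the thymus form of the catalytic subunit, is not in the count table and was listed at 0 FPKM in all 6 libraries.

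RNA was sequenced from haematopoietic stem cells (HSCs), the marrow cells that renew themselves and feed all blood lineages, at roughly 2000 sorted cells per library. There were 3 libraries from Ramp1 mutant mice (genotype given as Ramp-/-) and 3 from Ramp1+/+ mice, called wild type. All were from bone marrow of adult mice, and the labels name no other allele, treatment or agent. Ramp1 encodes the accessory protein that turns the receptor Calcrl into a receptor for the neuropeptide CGRP, and the series title concerns pain-sensing nerves and stem cell mobilization. The labels do not say which cells lost Ramp1, which part of the gene is altered or whether each library came from its own animal, so p-values measure only the spread between these libraries.

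The libraries held 22796771 to 26734561 reads counted in genes, which put 213 to 12373 reads on each proteasome gene. Ramp1 had 2.51 ± 1.1 FPKM in mutant and 90.2 ± 1.7 FPKM in wild-type HSCs (SD, n = 3 each; log2 fold change -5.17, edgeR adjusted p = 0.00146). All 10 HSC markers were tested, with summed levels of 1220 to 1544 FPKM in mutant and 1180 to 1457 FPKM in wild-type libraries, and none passed an adjusted p of 0.05. A list of 12 neutrophil genes was also present, at 184 to 1147 FPKM summed in mutant and 35.8 to 828 FPKM in wild-type libraries, with none of the 12 at 0 in every library and none past the threshold. Of 8 erythroid genes, none called, the sum was 52.0 to 209 FPKM in mutant and 10.5 to 55.2 FPKM in wild-type libraries, and lists of B cell, T and NK cell, macrophage and stromal genes each summed to at most 69.95 FPKM in any library. Reads of Y-linked genes numbered 6137 in mutant replicate 1 and 6527 in wild-type replicate 1, and no more than 2 in any other library.

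The proteasome is built from a barrel and caps. The barrel, or core particle, stacks outer rings of alpha subunits, which gate the entrance, on inner rings of beta subunits, of which Psmb5, Psmb6 and Psmb7 cut proteins. The regulatory cap has a base of ATPases that unfold the substrate and a lid that holds the ubiquitin-removing enzyme Psmd14. Other caps (PA28, PA200) open the barrel without ubiquitin, and dedicated chaperones help to assemble core and base. HSCs are known for low protein synthesis and for being sensitive to misfolded protein. In mammalian cells proteasome genes are raised together by the transcription factor Nfe2l1 when proteasome activity drops, through antioxidant response elements (AREs) in their promoters.

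Promoters of the members are described next. Whether their motifs bear on the library differences described further on was not tested. RefSeq windows (GRCm38.p6, 250 bases before to 50 bases after the gene start) were found for 38 of the 46 members, in 41 windows. Psma8, Psmb1, Psmb2, Psmb7, Psmc3, Psmd3, Psmd7 and Psmg2 had no window and were not searched. Each was searched on both strands for the ARE core TGACNNNGC, the ETS core CCGGAAG, the CCAAT box and the NRF1 motif GCGCNTGCG, bound by nuclear respiratory factor 1, which is not Nfe2l1. The 250 bases before the start are printed for Psmb5 (chr14:54617996-54618245, minus strand) and Psmb6 (chr11:70525107-70525356, plus strand), the catalytic subunits with an ARE core, in capitals, beginning 47 and 9 bases before the start.
Psmb5: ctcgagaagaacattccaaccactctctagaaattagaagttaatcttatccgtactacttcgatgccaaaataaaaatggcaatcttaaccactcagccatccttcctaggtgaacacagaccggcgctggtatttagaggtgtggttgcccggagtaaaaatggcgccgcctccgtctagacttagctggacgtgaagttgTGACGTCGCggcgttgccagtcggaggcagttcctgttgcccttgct
Psmb6: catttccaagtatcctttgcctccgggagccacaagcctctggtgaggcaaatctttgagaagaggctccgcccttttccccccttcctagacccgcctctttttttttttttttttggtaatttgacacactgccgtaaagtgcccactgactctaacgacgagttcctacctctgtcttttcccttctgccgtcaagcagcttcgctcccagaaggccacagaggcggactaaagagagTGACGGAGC
For the regulatory particle they are printed for the base scaffold Psmd2 (chr16:20651402-20651651, plus strand) and the lid subunit Psmd6 (chr14:14120946-14121195, minus strand), with the ETS core in capitals. It begins 26 bases before the start in Psmd2, where it lies on the opposite strand, and 45 bases before it in Psmd6.
Psmd2: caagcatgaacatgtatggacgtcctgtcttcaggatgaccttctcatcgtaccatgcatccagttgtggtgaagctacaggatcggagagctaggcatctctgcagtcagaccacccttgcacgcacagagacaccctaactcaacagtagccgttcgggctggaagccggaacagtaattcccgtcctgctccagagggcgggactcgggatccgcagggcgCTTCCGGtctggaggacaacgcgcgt
Psmd6: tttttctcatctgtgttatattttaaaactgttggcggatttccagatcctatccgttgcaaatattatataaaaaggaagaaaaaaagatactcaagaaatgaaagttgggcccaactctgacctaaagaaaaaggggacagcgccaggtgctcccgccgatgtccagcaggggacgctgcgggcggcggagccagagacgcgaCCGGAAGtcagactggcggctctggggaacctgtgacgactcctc
The ARE core was present in 6 of 38 members (15.8%), which were Psmb5, Psmb6, Psmc6, Psmd9, Psmd12 and Psme4, against 13.99% of all 27025 genes with a window. The ETS core was present in 15 members (39.5%), against 9.93% of all genes. Among members with a window, the ETS core was found in 9 of 14 base and lid genes and 1 of 11 core genes (Psma6). It was also in 2 of 6 activator genes, 2 of 6 assembly genes and Psmc3ip, which is not a proteasome gene. CCAAT occurred in 34.2% of members and 41.1% of all genes, and the NRF1 motif in 18.4% of members and 7.12% of all genes. The windows of members had a median GC content of 59.0%, above the 52.7% of all windows, and its part in the share of these GC-rich motifs was not tested. A match is a run of letters and not a shown binding site.

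Proteasome transcripts were abundant in these HSCs. The median member had a mean level of 106 FPKM (fragments scaled by gene length and by the reads counted in the library) over the 6 libraries, against 9.18 FPKM for the median tested gene. The 7 alpha and 7 beta subunits of the constitutive core ran from 84.4 FPKM (Psmb7) to 291 FPKM (Psma1), a 3.45-fold range among proteins that occur in equal numbers in the barrel. Base and lid subunits were lower on this scale. The mean subunit level of the base was 0.483 ± 0.0149 of that of the core in mutant and 0.486 ± 0.0199 in wild-type libraries, and that of the lid 0.462 ± 0.0094 in mutant and 0.469 ± 0.0069 in wild-type libraries (SD, n = 3 each). These levels depend on the gene length the authors used, which differed over 1.5-fold from the length of the principal GENCODE transcript for 8 members. With that length the core range was 3.94-fold and the order changed: Psma7 (333 FPKM) rather than Psma1 was the most abundant member, and Psmc6 (57.1 FPKM) rather than Psmc2 the lowest base gene. Unless stated, ranks of genes use the authors' lengths.

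**Figure D1:**
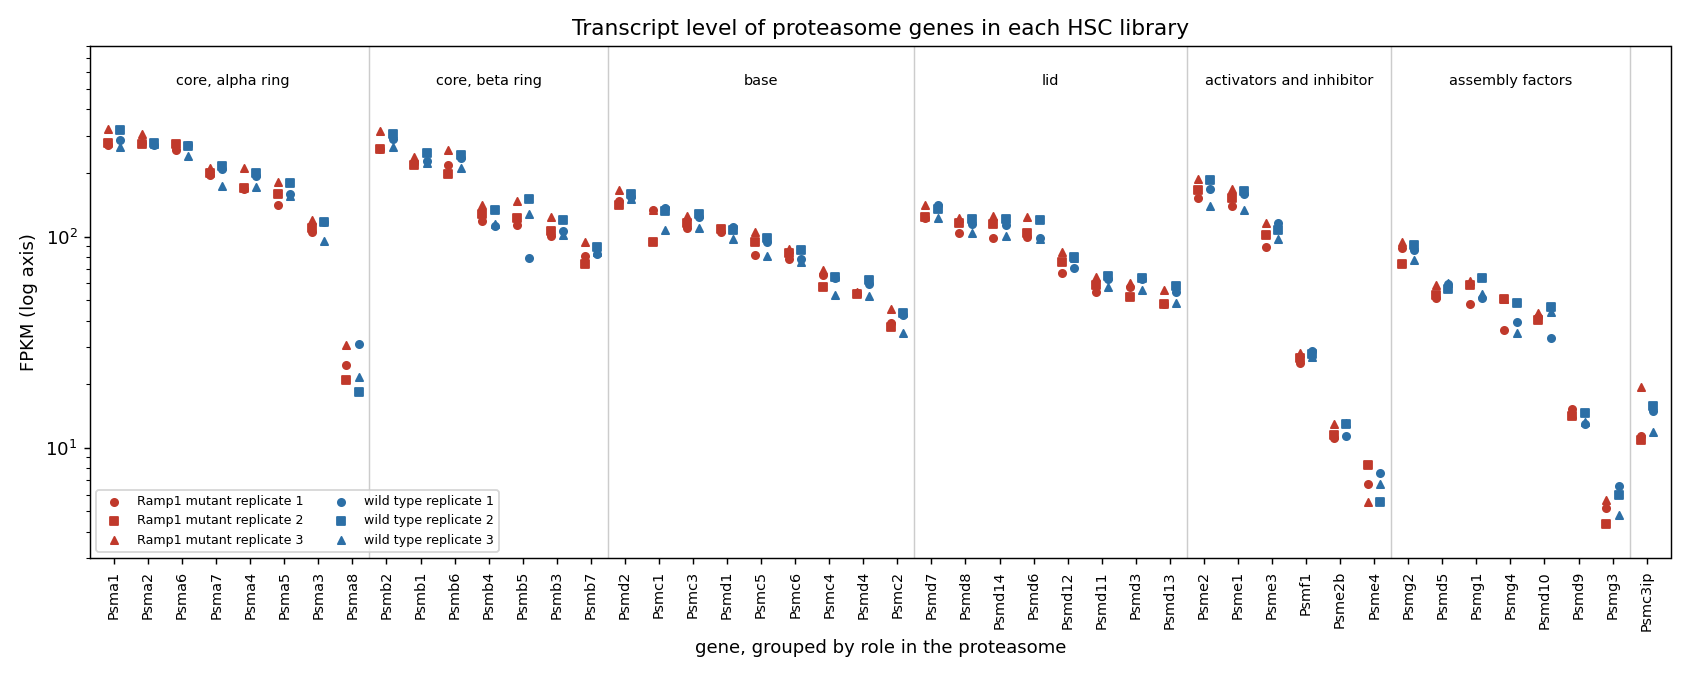
Level of each of the 46 genes in FPKM (log axis) in the 3 Ramp1 mutant libraries (red, left) and the 3 wild-type libraries (blue, right), grouped by role and ordered by mean level; the last gene, Psmc3ip, is not a proteasome subunit. Core genes lie between 84.4 and 291 FPKM on average except Psma8, and mutant and wild-type libraries overlap for every gene.

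None of the 46 genes passed the test between mutant and wild-type HSCs. With an adjusted p under 0.05 in edgeR's quasi-likelihood test, 3 of 14443 genes were called (0.0208%) and 0 of 46 members, whose smallest adjusted p was 0.999. At an unadjusted p under 0.05 the fit gave 576 genes (3.99%) and again 0 members, and DESeq2 called 44 genes with 0 members among them. For 10.3% of all genes tested the 3 mutant libraries lay wholly above or below the 3 wild-type libraries in FPKM, and this held for 0 members. The median log2 fold change, mutant over wild type, was 0.01 for the members, with 24 higher and 22 lower values, and 0.00 for all genes. Single members ran from -0.19 (Psmg3) to 0.16 (Psmg4). For 40 of 46 members the 95% confidence interval lay within 0.5 of 0 on the log2 scale, and the outermost bounds were -0.67 (Psmg3) and 0.64 (Psmb5). In the authors' deposited table, too, 0 of the 46 members had an adjusted p under 0.05, against 37 of all genes.

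**Figure D2:**
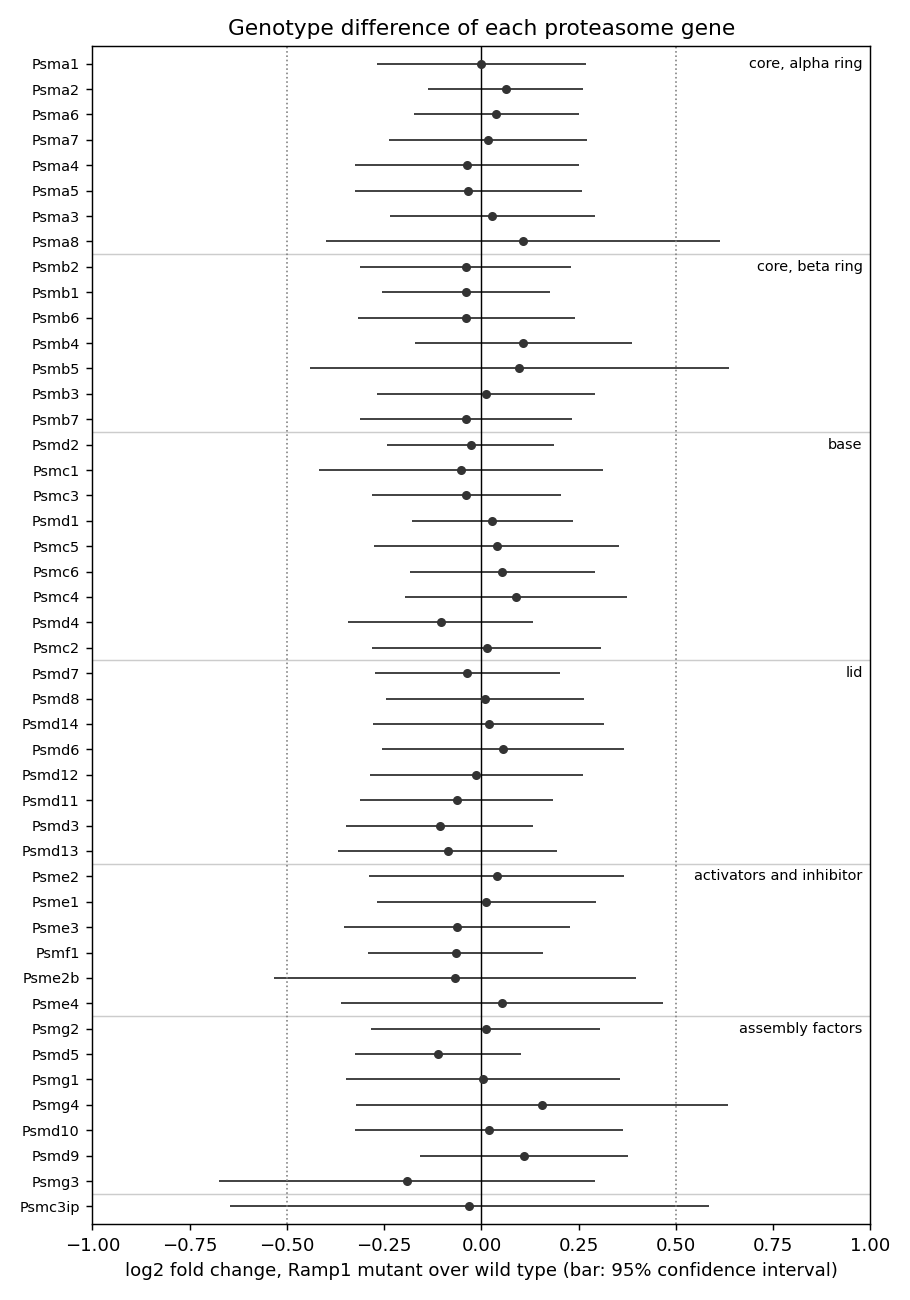
Log2 fold change (Ramp1 mutant over wild type) of each of the 46 genes from edgeR, with its 95% confidence interval, grouped by role; dotted lines mark 0.5 either side of 0. Every interval crosses 0, and 40 of 46 stay within the dotted lines.

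Among the alpha subunits, which form the outer rings and the gate, 5 of 8 values were higher in mutant cells and the median log2 fold change was 0.02. Psma1, the most abundant member, had 272, 278 and 323 FPKM in the mutant libraries and 287, 321 and 265 FPKM in the wild-type libraries. Both groups averaged 291 FPKM, with an SD of 27.8 FPKM each, and the 95% interval of the log2 fold change was -0.27 to 0.27. Psma2 had 277, 276 and 306 FPKM in mutant against 270, 279 and 274 FPKM in wild-type cells. Wild-type replicate 2 lay inside the mutant range and the other two wild-type libraries just below it, and its log2 fold change was 0.06 (SE 0.09). Psma6, Psma7, Psma4, Psma5 and Psma3 averaged 263, 201, 186, 163 and 111 FPKM, with log2 fold changes between -0.04 and 0.04. The exception in level was Psma8, the alpha subunit of testis proteasomes, at 24.7, 21.0 and 30.7 FPKM in mutant against 31.2, 18.3 and 21.7 FPKM in wild-type cells. Its highest and lowest libraries were both wild type, and its log2 fold change of 0.11 had an SE of 0.22. Psma4 shares 114 exon bases with AY074887 on the other strand.

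The catalytic beta subunits cut the unfolded chain inside the barrel. Psmb5, the chymotrypsin-like subunit (ENSMUSG00000022193, chr14:54614120-54617995 in mm10), had 113, 123 and 147 FPKM in mutant and 79.2, 150 and 128 FPKM in wild-type libraries. Wild-type replicate 1 was the lowest of the 6, and the mutant libraries fell between it and wild-type replicate 2. Its log2 fold change was 0.10 with an SE of 0.23, the widest spread in the beta ring. Without wild-type replicate 1 the log2 fold change was -0.13. Psmb5 shares 109 exon bases with the microRNA gene Mir686 on the same strand. Psmb6, the caspase-like subunit (chr11:70525367-70527858), had 218, 198 and 256 FPKM in mutant against 236, 243 and 212 FPKM in wild-type cells. Psmb7, the trypsin-like subunit (chr2:38588036-38644087), had 81.04, 74.3 and 94.2 FPKM in mutant against 82.9, 89.2 and 84.7 FPKM in wild-type cells. For both, mutant replicate 3 was the highest and mutant replicate 2 the lowest of all 6 libraries, and the log2 fold change was -0.04 (SE 0.12 each). Psmb7 shares 405 exon bases with Nek6 on the other strand, and the labels and headers do not say whether reads were counted by strand.

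The beta subunits without proteolytic activity showed the same scale of difference. Psmb2, the most abundant beta subunit, had 261, 259 and 318 FPKM in mutant against 291, 306 and 264 FPKM in wild-type cells (log2 fold change -0.04, SE 0.12). Psmb4 had 118, 128 and 142 FPKM in mutant against 112, 134 and 115 FPKM in wild-type cells, and its log2 fold change of 0.11 (SE 0.12) was the highest of the ring. The groups overlapped for both. Psmb1 and Psmb3 averaged 230 and 110 FPKM, with log2 fold changes of -0.04 and 0.01. Summed over the 14 constitutive core subunits, the core came to 2531, 2576 and 2940 FPKM in mutant and 2642, 2871 and 2506 FPKM in wild-type libraries. Mutant replicate 3 was the highest of all libraries and wild-type replicate 3 the lowest.

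Immunoproteasome subunits, which replace the catalytic subunits in many blood cells and after interferon, were expressed beside them. Psmb8 had 92.8, 99.1 and 108 FPKM in mutant against 79.2, 102 and 77.1 FPKM in wild-type cells (log2 fold change 0.21, SE 0.14). Psmb9 averaged 56.3 ± 5.17 FPKM in mutant and 56.9 ± 12.3 FPKM in wild-type cells, and Psmb10 96.6 ± 9.15 FPKM in mutant and 98.3 ± 11.8 FPKM in wild-type cells (SD, n = 3 each; log2 fold changes -0.02 and -0.03). None of the 3 passed the test. Psmb8 shares 498 exon bases with Gm20496 and Psmb9 212 with Tap1, each on the other strand. The ratio of Psmb8 to Psmb5 was 0.820, 0.806 and 0.737 in mutant and 0.9999, 0.681 and 0.6005 in wild-type libraries. The 3 mutant ratios lay inside the wild-type range, whose top was wild-type replicate 1, the library low in Psmb5. The ratio of Psmb9 to Psmb6 was 0.252 ± 0.0204 in mutant and 0.247 ± 0.0474 in wild-type cells, and that of Psmb10 to Psmb7 was 1.16 ± 0.0364 in mutant and 1.15 ± 0.113 in wild-type cells. Exact two-sided permutation tests gave p = 0.9, 1.0 and 0.9 for the 3 ratios, each 1.0 after adjustment, where 0.1 is the smallest p that 3 against 3 libraries can give. With lengths of principal transcripts the Psmb9 to Psmb6 ratio averaged 0.440 over all libraries, against 0.250 with the authors' lengths, so the ratio between genes moves with the length used.

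**Figure D3:**
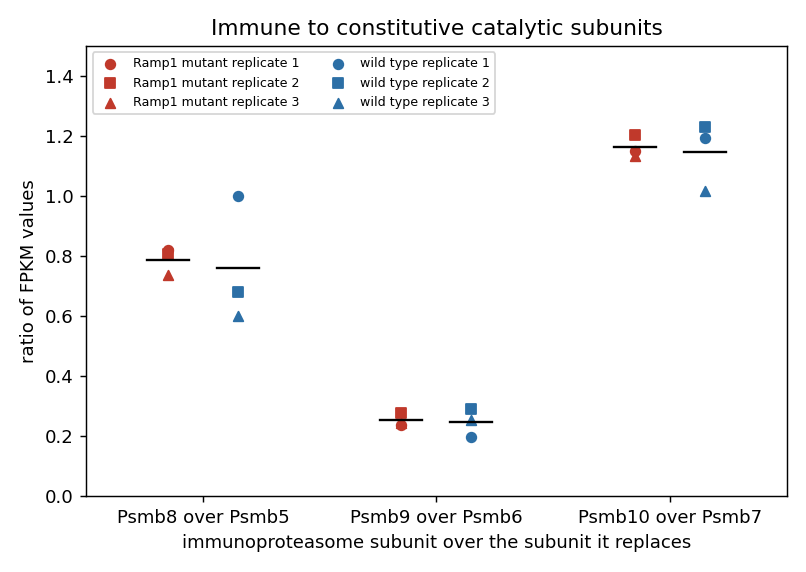
Ratio of FPKM values of each immunoproteasome subunit to the constitutive subunit it replaces, in the 3 Ramp1 mutant libraries (red, left) and the 3 wild-type libraries (blue, right), with black bars for the means. The groups overlap for all 3 ratios, and the highest Psmb8 to Psmb5 ratio, 0.9999, is that of wild-type replicate 1.

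In the base, 5 of 9 values were higher in mutant cells and the median log2 fold change was 0.01. Psmd2, a large scaffold that receives shuttle proteins and the most abundant base gene, had 147, 141 and 166 FPKM in mutant against 154, 159 and 150 FPKM in wild-type cells. The wild-type libraries all lay within the mutant range (log2 fold change -0.03, SE 0.09). Psmd4, a ubiquitin receptor, had 53.8, 53.5 and 54.7 FPKM in mutant against 59.8, 62.0 and 52.4 FPKM in wild-type cells. Its mutant libraries were close together and 2 of 3 wild-type libraries were above them, which gave a log2 fold change of -0.11 (SE 0.10) and an unadjusted edgeR p of 0.337. Psmc2, an ATPase and the lowest base gene, had 39.0, 37.3 and 45.4 FPKM in mutant against 42.4, 43.2 and 35.0 FPKM in wild-type cells. Again the groups overlapped. The ATPases Psmc1, Psmc3, Psmc5, Psmc6 and Psmc4 averaged 123, 119, 92.6, 81.5 and 62.4 FPKM, with log2 fold changes from -0.05 (Psmc1) to 0.09 (Psmc4). Psmd1, the other scaffold, averaged 106 FPKM and starts 5.12 Mb before Ramp1 on chromosome 1. Its log2 fold change was 0.03, with an SE of 0.09. Psmd1 shares 301 exon bases with Gm21972 on the same strand and 252 with Htr2b on the other strand. Psmc3 shares 215 exon bases with Slc39a13 on the other strand.

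The lid had 3 higher and 5 lower values and a median log2 fold change of -0.02. Psmd14, the deubiquitinase that strips ubiquitin chains before the substrate enters, had 98.9, 115 and 125 FPKM in mutant against 114, 121 and 100 FPKM in wild-type cells. Psmd7, its partner and the most abundant lid gene, had 123, 124 and 141 FPKM in mutant against 141, 135 and 122 FPKM in wild-type cells. The groups overlapped for both, with log2 fold changes of 0.02 (SE 0.13) and -0.04 (SE 0.10). Psmd3, a lid scaffold subunit, had 57.8, 51.6 and 60.3 FPKM in mutant against 63.2, 63.9 and 55.7 FPKM in wild-type cells, a log2 fold change of -0.11 (SE 0.10; unadjusted edgeR p of 0.333). Psmd13, the lowest lid gene, had 47.7, 47.9 and 55.7 FPKM in mutant against 54.5, 58.1 and 48.2 FPKM in wild-type cells. Its log2 fold change was -0.09 (SE 0.12), and it shares 342 exon bases with Sirt3 on the other strand. Psmd8, Psmd6, Psmd12 and Psmd11 averaged 114, 107, 76.4 and 60.7 FPKM, with log2 fold changes between -0.06 and 0.06.

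Activators spanned the widest levels. Psme1 and Psme2, the alpha and beta subunits of the PA28 cap that is best known for antigen processing, lie 5.91 kb apart on chromosome 14 on opposite strands. Psme1 had 140, 153 and 168 FPKM in mutant against 158, 165 and 133 FPKM in wild-type cells, and Psme2 had 153, 166 and 188 FPKM in mutant against 168, 186 and 139 FPKM in wild-type cells. The libraries stood in the same order for both genes, and the log2 fold changes were 0.01 (SE 0.12) and 0.04 (SE 0.14). Psme2b, a near copy of Psme2 at 12.2 FPKM, may share reads with it, so both values are uncertain to that extent. Psme3, the nuclear PA28 subunit, averaged 105 FPKM, and Psmf1, the regulator PI31, 27.3 FPKM, with log2 fold changes of -0.06 and -0.07. Psme4, which encodes the PA200 cap, was the lowest activator, at 6.76, 8.28 and 5.52 FPKM in mutant against 7.58, 5.55 and 6.75 FPKM in wild-type cells. It ran against the other genes: it was lowest in mutant replicate 3 and wild-type replicate 2, where most members were highest.

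Assembly factors held both ends of the fold change range. Psmg4, a core chaperone (chr13:34162964-34178172), had 36.1, 50.5 and 50.5 FPKM in mutant against 39.4, 48.7 and 35.1 FPKM in wild-type cells. Its log2 fold change was 0.16 with a 95% interval of -0.32 to 0.63. Psmg3, its partner and by FPKM the lowest of all members (chr5:139823592-139826885), had 5.21, 4.35 and 5.67 FPKM in mutant against 6.57, 5.99 and 4.81 FPKM in wild-type cells, with a log2 fold change of -0.19 and an interval of -0.67 to 0.29. For both genes the groups overlapped, and the intervals are among the widest of the 46. Psmg3 shares 280 exon bases with Gm26938 on the same strand, which counting by strand would not separate. At the length of its principal transcript the level of Psmg3 is 14.8 FPKM. Psmg2, another core chaperone, had 88.1, 74.5 and 94.8 FPKM in mutant against 86.3, 91.6 and 77.5 FPKM in wild-type cells. It was the most abundant assembly factor and had a log2 fold change of 0.01 (SE 0.13). Psmd5, a base chaperone, had 51.3, 52.8 and 58.9 FPKM in mutant against 59.9, 56.3 and 60.2 FPKM in wild-type cells, and its unadjusted p of 0.260 in edgeR was the smallest of all 46 members (log2 fold change -0.11, SE 0.09). Psmd9, also a base chaperone, had 15.3, 14.2 and 14.4 FPKM in mutant against 12.9, 14.6 and 13.2 FPKM in wild-type cells (log2 fold change 0.11, SE 0.12). Its exons share 1849 bases with the lincRNA Gm26745 on the other strand, so part of its reads may belong there. Psmg1 and Psmd10 averaged 56.2 and 41.5 FPKM, with log2 fold changes of 0.00 and 0.02. Psmc3ip averaged 13.9 ± 4.83 FPKM in mutant and 14.2 ± 2.06 FPKM in wild-type cells (log2 fold change -0.03), and it shares 385 exon bases with Mlx on the other strand.

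Proteasome genes differed between libraries of the same genotype, and did so together. Mutant replicate 3 was the highest mutant library for 42 of 46 members (91.3%), against 33.3% of all genes tested, on the log2 CPM scale (reads relative to the TMM-scaled library size). Mutant replicate 1 was the lowest for 33 members (71.7%), against 34.3% of all genes. In wild-type cells replicate 2 was the highest for 37 members (80.4%; 33.9% of all genes) and replicate 3 the lowest for 34 (73.9%; 33.6% of all genes). The steps were small: the median member had 1.16 times the FPKM in mutant replicate 3 as in mutant replicate 1, and 1.16 times in wild-type replicate 2 as in wild-type replicate 3. For all genes these ratios were 0.964 and 0.967. The members share their libraries, so these counts describe 6 libraries and are no test. Abundant genes in general leaned the same way: of the 1840 genes with at least 50 FPKM, a level that 36 members reach, 48.1% were highest in mutant replicate 3, 50.5% lowest in mutant replicate 1, 58.4% highest in wild-type replicate 2 and 47.8% lowest in wild-type replicate 3. Of the 779 genes with at least 100 FPKM, nearer the median member, these shares were 51.1%, 57.5%, 66.1% and 50.4%.

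Measured from the mean of all 6 libraries, the median member deviated by -0.12, -0.02 and 0.15 (log2 CPM) in mutant replicates 1, 2 and 3, and by 0.03, 0.13 and -0.12 in wild-type replicates 1, 2 and 3. The 14 core subunits deviated by -0.10, -0.01 and 0.18 in mutant and by -0.03, 0.14 and -0.12 in wild-type replicates. The lid deviated by -0.15, -0.02 and 0.12 in mutant and by 0.03, 0.14 and -0.12 in wild-type replicates, so core and cap followed one another. The members not highest in mutant replicate 3 among the mutant libraries were Psma6, Psme4 and Psmg4, highest in mutant replicate 2, and Psmd9, highest in mutant replicate 1. The lowest mutant library varied more, as mutant replicate 1 was lowest for 33 of 46 members. The largest departure of a member from the members' median in a library was that of Psmb5 in wild-type replicate 1, at -0.65, followed by Psma8 in wild-type replicate 2, at -0.50, and Psme4 in mutant replicate 3, at -0.41. Within groups the median member varied less than the median tested gene, with an SD of 0.16 against 0.24 on the log2 CPM scale. Members are also more abundant (median 106 against 9.18 FPKM), and their spread was not compared with that of genes of like level.

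Other gene lists moved between the same libraries. The 25 G2/M genes, transcribed in dividing cells, had median deviations of -0.21, -0.60 and 0.39 in mutant and 0.02, 0.24 and 0.18 in wild-type replicates 1, 2 and 3; all 25 had lower values in mutant cells (median log2 fold change -0.23) and none was called. The 10 HSC markers had 0.21, 0.02 and -0.15 in mutant and 0.14, -0.22 and 0.05 in wild-type replicates. The 12 neutrophil genes had -0.83, 1.32 and 1.88 in mutant and -3.16, -0.13 and 1.49 in wild-type replicates. Mutant replicate 3, high in proteasome genes, was thus also high in G2/M and neutrophil genes and low in HSC markers. Wild-type replicate 2, also high in proteasome genes, was high in G2/M genes and low in HSC markers. Mutant replicate 1, low in proteasome genes, was low in G2/M and neutrophil genes and high in HSC markers. Wild-type replicate 3, also low in proteasome genes, was high in G2/M and neutrophil genes. Mutant replicate 2, with proteasome genes near the mean (-0.02), was the lowest of all libraries in G2/M genes (-0.60) and high in neutrophil genes. Wild-type replicate 1, with proteasome genes also near the mean (0.03), was near the mean in G2/M genes, lowest in neutrophil genes (-3.16) and high in the HSC list. Ribosomal protein genes, 81 in all, had -0.00, 0.16 and 0.12 in mutant and -0.21, 0.01 and -0.09 in wild-type replicates, with 78 of 81 values higher in mutant cells (median log2 fold change 0.16). The part of these lists in the proteasome levels was not tested, and in bulk libraries more cells of a type and more RNA per cell cannot be told apart.

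**Figure D4:**
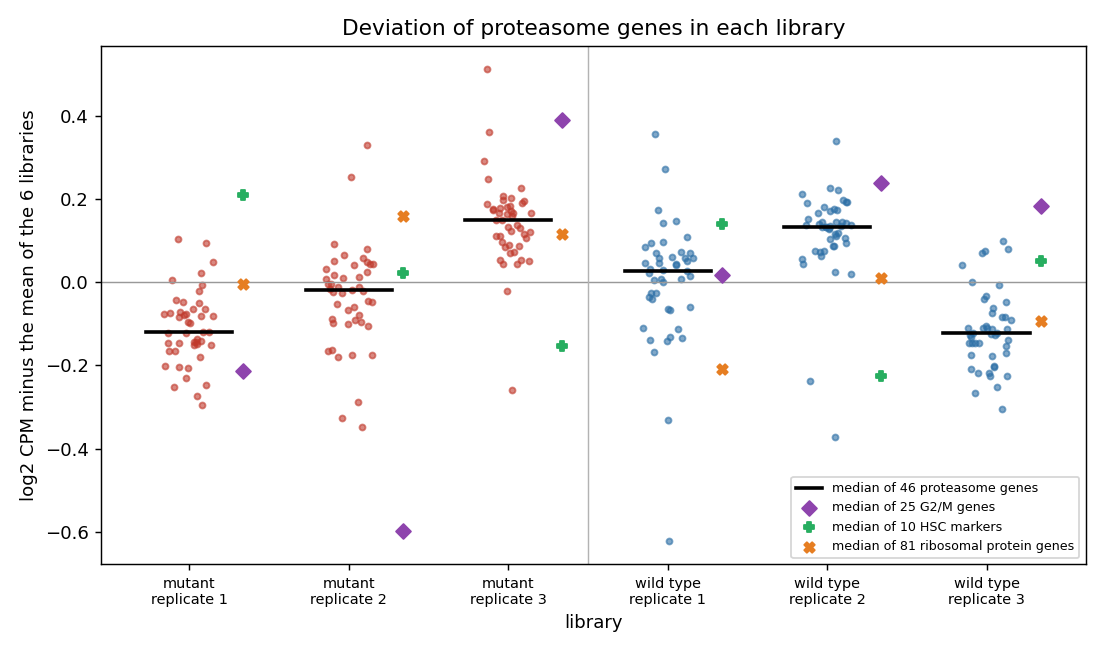
Deviation of each of the 46 genes (points) from its mean over the 6 libraries, in log2 CPM, for the Ramp1 mutant libraries (red, left) and the wild-type libraries (blue, right), with the members' median (bar) and the medians of G2/M genes, HSC markers and ribosomal protein genes. Members sit highest in mutant replicate 3 and wild-type replicate 2 and lowest in mutant replicate 1 and wild-type replicate 3.

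Genes that work beside the proteasome did not pass the test either. Of 10 tested subunits and factors outside the naming rule, 0 were called, with 5 higher and 5 lower values. Pomp, which matures the core, averaged 205 ± 7.38 FPKM in mutant and 189 ± 10.8 FPKM in wild-type cells (log2 fold change 0.12, SE 0.09), and Adrm1, a ubiquitin receptor of the base, 20.5 ± 1.74 FPKM in mutant and 21.5 ± 1.57 FPKM in wild-type cells. Shfm1, the small lid subunit also called Sem1, had 78.7, 81.4 and 87.2 FPKM in mutant against 65.4, 71.9 and 63.0 FPKM in wild-type cells. All its mutant libraries were above all its wild-type libraries, with a log2 fold change of 0.31 (SE 0.11) and an edgeR p of 0.0205 that was 0.999 after adjustment over all genes. Usp14, a deubiquitinase bound to the base, had a log2 fold change of -0.16, and Zfand5, a proteasome-stimulating protein, one of 0.15.

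Of 9 genes for transcription control, 0 were called, with 5 higher and 4 lower values. Nfe2l1, the activator of proteasome genes, averaged 33.0 ± 5.02 FPKM in mutant and 30.0 ± 1.05 FPKM in wild-type cells (log2 fold change 0.14, SE 0.11), and its relative Nfe2l2 75.2 ± 9.72 FPKM in mutant and 66.7 ± 9.34 FPKM in wild-type cells (log2 fold change 0.18, SE 0.13). The CCAAT-binding subunits Nfyb and Nfya had log2 fold changes of -0.48 (SE 0.17) and -0.57 (SE 0.25), and Nfyc one of -0.06 (SE 0.12). Nfya was low in level, averaging 2.14 FPKM in mutant and 3.19 FPKM in wild-type cells. Ddi2, the protease that activates Nfe2l1, had a log2 fold change of 0.26 (SE 0.15). Of 15 tested genes for ubiquitin supply and delivery, 0 were called, with 7 higher and 8 lower values. Uba6, a ubiquitin-activating enzyme, averaged 20.9 ± 2.16 FPKM in mutant and 16.7 ± 1.14 FPKM in wild-type cells (log2 fold change 0.33, SE 0.12). Of 10 genes for the autophagy of protein aggregates, 0 were called, with 3 higher and 7 lower values, among them the receptor Sqstm1 at -0.09 and the deacetylase Hdac6 at -0.31. Adjusted p-values in these lists were 0.999 or more in edgeR.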

How the data were processed

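Per the labels, RNA came from sorted HSCs, with 3 mutant and 3 wild-type libraries. Per the submitters' processing notes, CASAVA, STAR, HTSeq 0.6.1, DESeq2 and the build mm10 were used, in roles not given there. The authors deposited raw read counts per gene, values normalized by size factors (signal, left unused), FPKM scaled by gene length and counted reads, and their own log2 fold changes and p-values. How strand was treated, and which annotation release was counted on, were not given in the sources used here.

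Counts were tested with edgeR 4.0.16 in R 4.3.3 (TMM, filterByExpr, quasi-likelihood F test, two-sided), with Benjamini-Hochberg adjustment over all 14443 genes and a threshold of 0.05. Standard errors were taken as the absolute log2 fold change over the square root of F, and 95% intervals from the fit's total degrees of freedom. Library deviations used log2 CPM (prior count 2). On simulated counts for 14443 genes of the mutant and wild-type comparison, edgeR called 8% of the genes given a 1.5-fold change, 48% of those given 2-fold, 68% for 4-fold and 86% for 8-fold. No libraries agreed within sampling noise. Alternatives were other scalings and filters, DESeq2 1.42.0, limma 3.58.1 on log2 FPKM, a Y-linked covariate, the replicate number as a block and each library left out. Members, gene lists and tests were chosen with earlier results of these data known. Named in every library were the catalytic subunits, Psme1, Psme2, Psmd4, Psmd14 and the highest and lowest member of each class. So were the members with the 4 smallest unadjusted p-values in each direction. The other lists are shown by up to 4 genes with the smallest p, plus Pomp, Adrm1, Nfe2l1, Nfe2l2 and Nfyc. A gene that this rule names is not reported here.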

Additional observations from a re-analysis of the deposited data

How the results depend on the processing

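Under other scalings, filters, tools and with each library left out, 0 members were called throughout. Genes called over the whole table numbered 44 with DESeq2 and 2 to 6 with one library left out, against 3. The members' median log2 fold change ran from -0.089 (without mutant replicate 3) to 0.069 (without wild-type replicate 2), within the SD of 0.133 of the members' median between libraries of a group. Of 391 values for the named members under these settings, 38 had the other sign, and no member's value was past the threshold under any of them. Psma1 (main value -0.00) became 0.0082 with upper quartile scaling, 0.0056 with a filter of CPM of at least 1 in 3 libraries and 0.00036 with the replicate block. Without replicate 1 of both groups, the libraries with Y-linked reads, the members' median was 0.051, with 0.045 for Psma1, 0.025 for Psmb2, -0.038 for Psmb5, 0.0070 for Psmb6 and 0.052 for Psmd7.

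Among members whose sign changed with one library left out, the log2 fold change of Psma1 ran from -0.095 to 0.097, Psma8 ran from -0.062 to 0.35, Psmb2 ran from -0.16 to 0.029, Psmb5 ran from -0.13 to 0.32, Psmb6 ran from -0.16 to 0.040, Psmb7 ran from -0.15 to 0.032, Psmc2 ran from -0.089 to 0.091. For the rest, Psmd14 ran from -0.072 to 0.12, Psmd2 ran from -0.11 to 0.017, Psmd7 ran from -0.12 to 0.017, Psme1 ran from -0.082 to 0.097, Psme2 ran from -0.075 to 0.16, Psme4 ran from -0.11 to 0.18 and Psmg2 ran from -0.080 to 0.10. The other 9 named members kept their sign, with the furthest values at 0.32 for Psmg4 and -0.31 for Psmg3. The value furthest from 0 for any named member was 0.39 for Psma8 without replicate 1 of both groups.

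The labels do not say whether replicate numbers pair the libraries, and correlations of deviations do not settle it. Same-numbered libraries had values of 0.138, 0.0018 and -0.094 (replicates 1, 2 and 3). Mutant replicate 1 correlated best with wild-type replicate 1. Mutant replicate 2 correlated best with wild-type replicate 3 (0.102), and mutant replicate 3 with wild-type replicate 2 (0.146). With the replicate block the members' median was 0.0051 with 0 members called. The library order of the members was checked under other scalings, chosen after seeing the data: mutant replicate 3 was highest for 42 or 43 members, and mutant replicate 1 lowest for 28 to 33. With 3 libraries a group, most 1.5-fold changes in genes drawn from all those tested were missed in the simulation (8% called). The members are more abundant than the median tested gene, and no such rate was obtained for them.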
